A study of Saccharomyces cerevisiae with 16 samples.

Results

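Steady-state RNA of a budding yeast (Saccharomyces cerevisiae) strain in which Taf4 can be moved out of the nucleus was compared between cells given rapamycin and cells given its solvent, DMSO. The comparison rests on 4 of the study's 16 arrays, chosen by title: 2 labelled Taf4, steady-state RNA and plus rapamycin, and 2 labelled Taf4, steady-state RNA and minus rapamycin. Only S. cerevisiae genes are described, and probe sets of the fission yeast Schizosaccharomyces pombe, whose cells were mixed in as a spike-in, set the scale. The study as a whole had 8 groups of 2 arrays, from the strain titles Taf4 and Taf5, the steady-state and newly synthesized RNA fractions, and both treatments.

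Both groups came from W303 cells of mating type MATalpha that carried tor1-1, fpr1::NAT, RPL13A-2xFKB12::TRP1 and TAF4-FRB::HYGRO, and the labels give this genotype to all 16 samples, including those titled Taf5. The tor1-1 allele makes growth control by TOR resistant to rapamycin, and loss of FPR1 removes the cell's own rapamycin-binding protein. In the anchor-away method rapamycin then joins the FRB tag on the target to the FKBP12 tag on a ribosomal protein, which carries the target out of the nucleus. Rapamycin or DMSO was given for 30 min, 5 mM 4-thiouracil was then added for 6 min, and S. pombe cells were mixed with S. cerevisiae cells at 1 part to 3. The treatment protocol gives 1 µg/mL rapamycin and the design text 5 µM. No strain without a tagged Taf was given rapamycin in the arrays used here, so effects of the drug and of moving Taf4 cannot be told apart.

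TFIID is the general transcription factor that places TATA-binding protein (TBP) on promoters. It is built from TBP and TBP-associated factors (TAFs). Some TAFs are found only in TFIID, and others are also built into SAGA, a coactivator that can deliver TBP as well. Taf4 is found only in TFIID, where it pairs with Taf12 through a histone fold. Steady-state RNA is the balance of synthesis and decay, so it follows a change of synthesis with a delay set by each transcript's stability.

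The arrays were Affymetrix Yeast Genome 2.0 arrays with 1 sample each, and every value below is a log2 intensity after each array was shifted to an equal S. pombe median. Signals of different probe sets are not comparable as levels, so only the same gene is compared between arrays. Of 5449 S. cerevisiae genes on the array, the dimmest 1090, with a mean log2 signal over the 8 Taf4-labelled arrays under 6.70, were left out and 4359 were tested with limma over the same arrays. A call means a Benjamini-Hochberg adjusted p under 0.05. The 2 replicates of a group are not said to come from separate cultures, so p-values measure the spread between these arrays, which may be technical. That spread was pooled over the 4 Taf4-labelled groups, and limma drew each gene's value toward that of all genes. With 4 residual degrees of freedom the total was 37.3, so an SE says little about a single gene's own replicates.

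The fraction labels are in doubt, and this touches every result below. The 16 columns held 10 distinct scans: both DMSO arrays of the comparison recur, divided by 5, under the titles of Taf5 newly synthesized DMSO, and rapamycin replicate 1 recurs under Taf5 newly synthesized rapamycin. Rapamycin replicate 2 has no copy. The labels describe the S. pombe cells as grown apart, as one spike-in for every sample, yet the S. pombe profile also separated the groups. Across S. pombe probe sets the DMSO steady-state arrays correlated at 0.827 to 0.893 with the rapamycin steady-state arrays, while the latter correlated at 0.946 to 0.982 with the 4 arrays labelled newly synthesized. The spread of S. pombe signals from the 10th to the 90th percentile was 2.84 and 2.88 on the DMSO arrays, 3.68 and 3.36 on the rapamycin arrays, and 3.81 to 3.85 on the newly synthesized arrays. Whether the fractions of single arrays were exchanged was not tested, and the labels are kept as given.

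**Figure D1:**
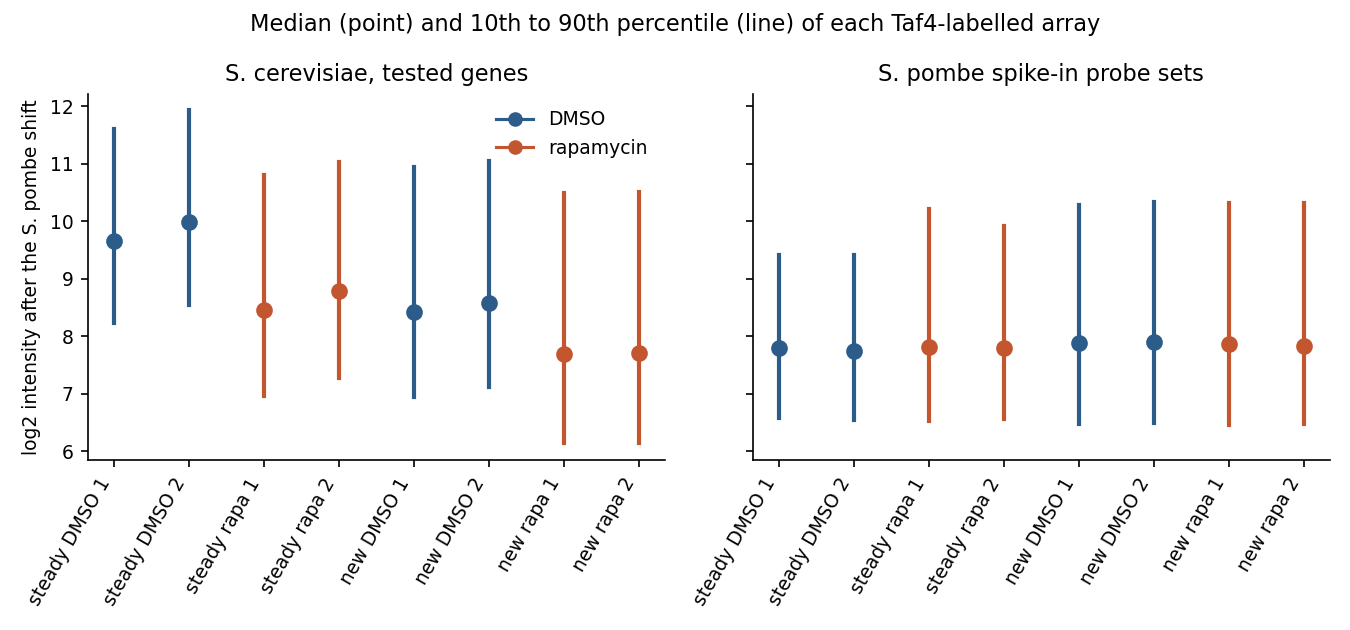
Median (point) and 10th to 90th percentile (line) of the log2 intensity of tested S. cerevisiae genes (left) and S. pombe probe sets (right) on each of the 8 Taf4-labelled arrays, after shifting all arrays to an equal S. pombe median. The rapamycin steady-state arrays have S. cerevisiae medians of 8.45 and 8.79 against 9.66 and 9.99 with DMSO, and a wider spread of S. pombe signals.

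Mating-type markers were read against the filter. All 4 alpha-specific genes passed the filter, with a log2 of their summed intensity of 14.67 to 15.09 on the DMSO and 13.78 to 13.92 on the rapamycin arrays. None of the 7 genes specific to the opposite mating type passed, with a summed value of 8.52 to 9.04 and 7.92 to 7.97, and of 40 genes of meiosis and sporulation 3 passed. STE6, an a-specific gene, read 6.85 and 7.48 on the DMSO arrays and 5.72 and 6.02 on the rapamycin arrays. These sums come from different probe sets and are not compared as levels. TAF4 (YMR005W, chromosome XIII, 276045 to 277211 in R64) encodes the tagged protein, and its transcript read 8.46 and 8.42 with DMSO and 6.80 and 7.08 with rapamycin. It fell by 1.5 (SE 0.22, 2.83-fold, adjusted p = 1.74e-07), the largest fall of the 9 TFIID genes below and close to that of TAF8 (-1.48). Anchor-away acts on the protein, so the transcript does not check where Taf4 was. RPL13A, which encodes the anchor, read 7.61 and 7.34 with DMSO and 7.43 and 7.53 with rapamycin, so its groups overlapped (0.00, SE 0.22, adjusted p = 0.99). TOR1, the kinase gene that carries the resistance allele, fell by 0.92 (SE 0.22, adjusted p = 0.000268).

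Most transcripts were lower after rapamycin. Of 4359 genes 3785 (86.8%) fell, 62 (1.42%) rose and 512 passed in neither direction, so 88.3% were called. The median change was -1.17, which is 2.26-fold lower, with quartiles of -1.51 and -0.77 and a median SE of 0.22. Of the genes that fell, 2711 were at least 2-fold and 167 at least 4-fold lower, and 26 of those that rose were at least 2-fold higher. The groups did not overlap for 4084 genes (93.7%). In these bulk samples fewer cells and less RNA per cell cannot be told apart.

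The array medians show the same shift with its spread. They were 9.66 and 9.99 with DMSO (9.82 ± 0.23, SD, n = 2) and 8.45 and 8.79 with rapamycin (8.62 ± 0.24, SD, n = 2). The difference of -1.20 exceeded the spread within either group, with a two-sided exact permutation p of 0.333, the smallest that 2 against 2 arrays can give. DMSO replicate 2 and rapamycin replicate 2 were the brighter arrays of their groups. The 4 single-array pairs gave medians from -1.51 to -0.85, and leaving out 1 array gave a median change over all genes of -1.35 to -1.01.

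How many genes fell depends on the spike-in scale. With the S. cerevisiae medians set equal, which removes any common change, 787 genes (18.1%) were lower and 1393 (32%) higher. Of the 3785 falls, 787 then remained lower and 819 were called higher. With intensities as deposited 2977 were lower and 259 higher (median -0.64). A smooth (loess) curve fitted to the S. pombe spike-in, which lets the scale differ between dim and bright signals, gave 4141 lower (95%) and 29 higher (0.665%), with a median of -1.54. A constant shift moves all genes of an array alike, so a gene's distance from the all-gene median is the same under these 3 constant scales and only the curve changes it. Equal medians raise every change by one amount, to a median of 0.09 over tested genes. That turns lists that fell less than the median gene positive, and some lists that fell slightly more. For this reason gene groups are given below as changes and, for most, relative to all genes. A share of a group that fell is to be read against the 86.8% of all genes.

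The change also depended on signal. Across 10 bins of mean signal, the median S. cerevisiae change ran from -1.33 in the dimmest to -0.47 in the brightest, with the lowest value of -1.38 in the third. S. pombe probe sets in the same bins ran from -0.18 to 1.21, so the difference between the species was -1.15 in the dimmest bin and -1.68 in the brightest. In the newly synthesized label the S. pombe medians stayed between -0.15 and 0.00. Of 1397 S. pombe probe sets 757 (54.2%) were called in the steady-state contrast, 306 lower and 451 higher, against 0 in the newly synthesized contrast by the same limma fit, where 45 had an unadjusted p under 0.05. For most bright genes with little change, the value under the curve is therefore printed as well. The curve is least certain there, because the brightest bin (10.95 to 13.73) held 58 S. pombe probe sets against 436 genes. Beyond the brightest S. pombe probe set the curve was held constant.

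**Figure D2:**
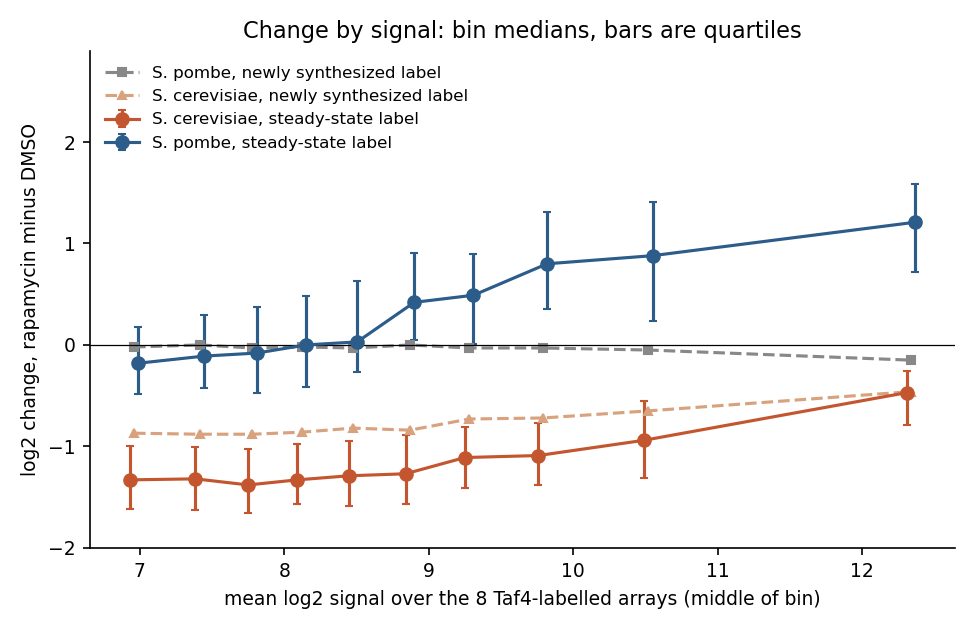
Median log2 change (rapamycin minus DMSO) in 10 bins of mean log2 signal, for S. cerevisiae genes and S. pombe probe sets, with quartiles as bars for the steady-state label and medians alone for the newly synthesized label. In the steady-state label the S. pombe medians climb from -0.18 to 1.21 with signal while the S. cerevisiae medians go from -1.33 to -0.47.

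Genes of the transcription machinery fell about as far as the median gene. Of the 9 genes for TFIID subunits outside SAGA 8 fell, with a median of -1.26, which is 0.09 below all genes (0.15 above under the curve). TAF8, whose product is a histone-fold partner of Taf10 and which was picked after its values were seen, read 8.87 and 9.62 with DMSO and 7.50 and 8.04 with rapamycin (-1.48, SE 0.24, adjusted p = 9.86e-07). TAF1, the large scaffold subunit, fell by 1.21 (SE 0.22) and TAF11, which encodes a histone-fold subunit, by 1.32 (SE 0.23). The exception was TAF14, also a subunit of chromatin remodelers, at -0.40 (SE 0.21, adjusted p = 0.072). It passed without DMSO replicate 2 (-0.49, adjusted p = 0.0471).

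All 5 TAF genes shared with SAGA fell (median -1.28, 0.10 below all genes, also under the curve). TAF5, the gene named in the study's other titles, read 10.50 and 10.55 with DMSO and 8.90 and 9.35 with rapamycin and fell by 1.4 (SE 0.22, adjusted p = 4.88e-07). The DMSO arrays differed by far less than the distance between groups. All 14 SAGA-specific genes fell (median -1.38, 0.21 below all genes, 0.10 above under the curve). SGF29, which encodes the subunit that reads methylated histone H3, fell by 1.92 (SE 0.23, 3.77-fold), and SPT20, needed to hold SAGA together, by 1.60 (SE 0.24).

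Of 23 genes for TBP and the basal factors 20 fell, a share close to that of all genes (median -1.21, 0.04 below all genes, 0.15 below under the curve). TFB2, a subunit gene of TFIIH, read 9.46 and 10.13 with DMSO and 7.49 and 7.86 with rapamycin, a 4.35-fold fall (-2.12, SE 0.23, adjusted p = 1.32e-09). Of 20 Mediator genes 19 fell (median -1.27, 0.10 below all genes, 0.03 below under the curve), MED6 of the head module by 2.03 (SE 0.22). The 12 RNA polymerase II subunit genes all fell but by less (median -0.80, 0.37 above all genes, 0.24 below under the curve). Among them the genes of the 2 largest subunits fell most, RPO21 by 1.64 (SE 0.23) and RPB2 by 1.46 (SE 0.23). RPB2 was picked after its values were seen. Of 19 genes specific to RNA polymerases I and III 17 fell (median -1.37, 0.20 below all genes, 0.51 below under the curve), RPC34 by 2.02 (SE 0.22).

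The 15 largest falls spanned 5.38- to 7.18-fold, with SEs of 0.22 to 0.27 and adjusted p from 1.86e-11 to 2.14e-09. ARE1 (YCR048W, chromosome III, 211929 to 213761), which encodes a sterol-esterifying enzyme, read 9.15 and 9.57 with DMSO and 6.07 and 6.96 with rapamycin (-2.84, SE 0.24). The lower rapamycin value of ARE1 is under the signal limit, so the size of its fall is less certain. BTN2 (YGR142W, chromosome VII, 772454 to 773686), whose product gathers misfolded proteins, read 12.06 and 12.65 with DMSO and 9.40 and 9.78 with rapamycin (-2.77, SE 0.23). For both genes the highest rapamycin array lay over 2 log2 units below the lowest DMSO array. SET5, a histone methyltransferase gene, read 9.47 and 9.86 with DMSO and 6.79 and 7.18 with rapamycin (-2.69, SE 0.22). TPK3, a catalytic subunit gene of protein kinase A, read 9.80 and 10.25 with DMSO and 7.07 and 7.75 with rapamycin (-2.62, SE 0.23). All 15 were chosen among called genes whose groups did not overlap, so the gaps between groups are no further support.

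The other 11 fell by 2.43 to 2.58 and serve varied functions. They include the ABC transporter gene PDR10 (-2.58), the mitochondrial tRNA modification gene MTO1 (-2.48), BCH2 of the exomer cargo adaptor (-2.47), and BCD1, needed for box C/D snoRNAs (-2.46). MNN5 (-2.45) encodes a Golgi mannosyltransferase, SOK2 (-2.44) a transcription factor, RAM1 (-2.44) the beta subunit of farnesyltransferase, GCD10 (-2.43) a subunit of a tRNA methyltransferase, and YAP1802 (-2.43) a clathrin assembly protein. IRC8 (-2.56), which read 5.86 on rapamycin replicate 1, under the signal limit, and MTC2 (-2.44) complete the set. All 15 were also called lower under the curve, with equal S. cerevisiae medians and in the newly synthesized label. The shares of all genes called lower there were 95%, 18.1% and 79.4%. Equal medians shift every change alike, so the largest falls stay the largest, and these counts are no further support.

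**Figure D3:**
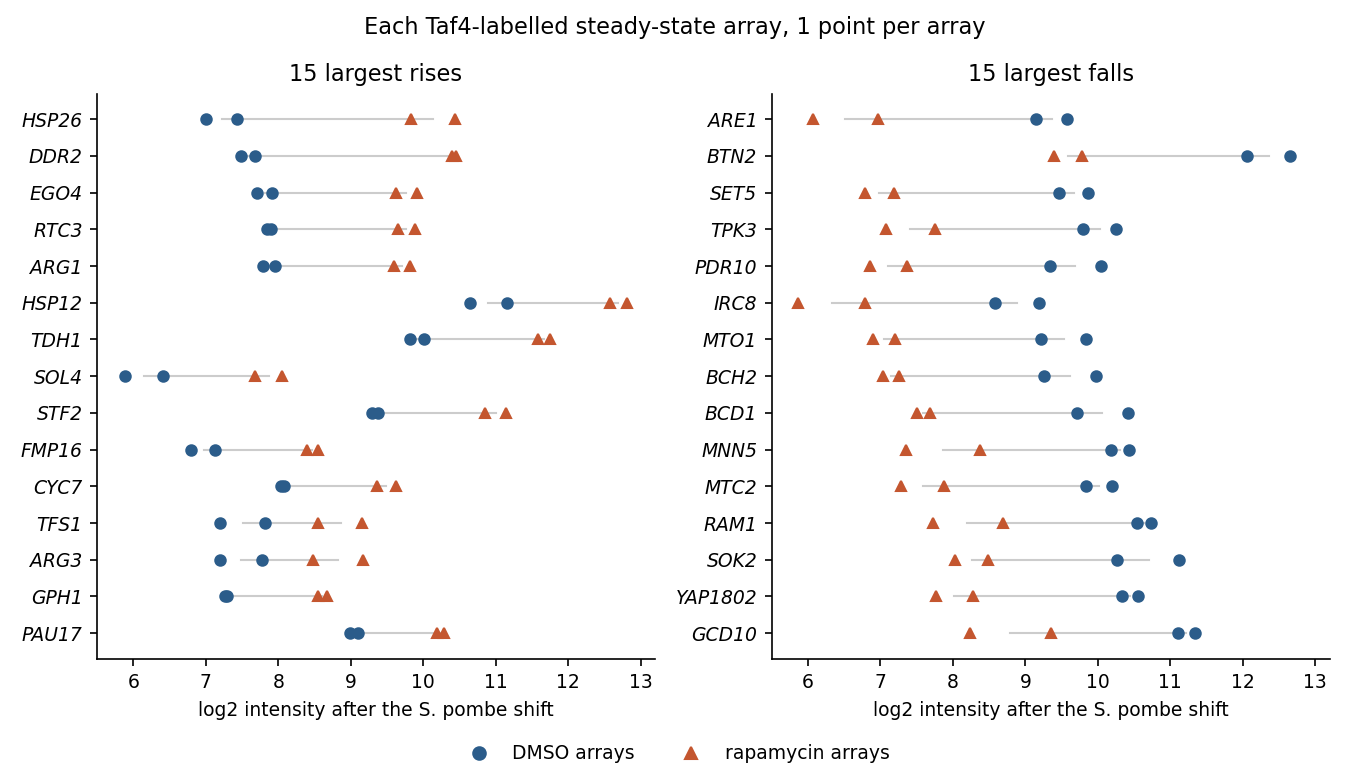
Log2 intensity of the 15 largest rises and 15 largest falls on each of the 4 Taf4-labelled steady-state arrays; circles are DMSO arrays, triangles rapamycin arrays, and the grey line joins the group means. No gene's groups overlap, since the choice required it, and HSP26 and DDR2 among the rises and ARE1 and BTN2 among the falls lie farthest apart.

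Genes of the general stress response made up 19 of the 62 that rose. This program, driven by Msn2 and Msn4, protects resting and stressed cells and includes heat-shock, trehalose and glycogen genes. Of its 40 tested members 19 rose, 5 fell and 16 passed in neither direction, and the list's median was 0.30 (0.15 to 0.41 leaving out 1 array, lowest without DMSO replicate 1), 1.47 above all genes. Under the curve 13 were higher and 10 lower, against 0.665% and 95% of all genes. The list's median under the curve was 0.02, 1.56 above that of all genes. In the newly synthesized label 28 of the 40 were higher and 0 lower, against 1.79% and 79.4% of all genes. The list's median there was 0.81, against -0.78 for all genes.

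HSP26 (YBR072W, chromosome II, 382030 to 382674), a small heat-shock protein gene, read 7.0 and 7.43 with DMSO and 10.44 and 9.83 with rapamycin. It rose 7.56-fold (2.92, SE 0.23, adjusted p = 7.48e-12). DDR2 (YOL052C-A, chromosome XV, 231570 to 231755), a multistress gene, read 7.68 and 7.49 with DMSO and 10.45 and 10.40 with rapamycin and rose 7.18-fold (2.84, SE 0.21, adjusted p = 3.26e-12). Both were chosen among called genes whose groups did not overlap, so the gap between their groups is no further support. Under the curve the 2 rises were 2.33 and 2.45. HSP12, which encodes a membrane-binding heat-shock protein, read 10.64 and 11.16 with DMSO and 12.81 and 12.58 with rapamycin (1.79, SE 0.22). Under the curve its rise shrank to 0.51 (adjusted p = 0.0493).

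Other members of this list rose as well. GPH1, which encodes glycogen phosphorylase, read 7.29 and 7.27 with DMSO and 8.55 and 8.67 with rapamycin (1.33, SE 0.21). SOL4, a 6-phosphogluconolactonase gene, read 5.88 and 6.41 with DMSO and 8.05 and 7.68 with rapamycin (1.72, SE 0.23). The groups of both genes were apart, as the choice of the largest rises required. The DMSO values of SOL4 lie under the signal limit, and under the curve the genes were higher by 1.27 and 1.78. TFS1, an inhibitor gene of carboxypeptidase Y, rose by 1.34 (SE 0.23), STF2 by 1.66 (SE 0.21) and RTC3 by 1.90 (SE 0.22). PNC1, the nicotinamidase gene, rose by 1.09 (SE 0.21) but was at 0.05 under the curve (adjusted p = 0.854). SOD2, which encodes mitochondrial superoxide dismutase, was at 0.25 (SE 0.21, adjusted p = 0.264) and lower under the curve (-0.68, adjusted p = 0.00856). MSN4, which encodes an activator of this program, went the other way: it read 8.08 and 8.31 with DMSO and 6.58 and 7.30 with rapamycin, a fall of 1.26 (SE 0.23, adjusted p = 7.61e-06). Its lower rapamycin value is under the signal limit.

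The remaining large rises were EGO4 (1.96), the arginine synthesis genes ARG1 (1.84) and ARG3 (1.34), the glyceraldehyde-3-phosphate dehydrogenase gene TDH1 (1.76), FMP16 (1.51), the cytochrome c gene CYC7 (1.43) and PAU17 (1.19). PAU17 belongs to the seripauperin family of near-identical genes, so its assignment is uncertain. Of the 15 largest rises 14 were also called higher under the curve and 14 in the newly synthesized label, PAU17 being the exception in both (0.48 under the curve and 0.26 in the newly synthesized label). The shares of all genes called higher there were 0.665% and 1.79%. Of all 62 rises, 61 had groups that did not overlap, against 3833 of all 3847 called genes and 93.7% of tested genes. A fit of the 4 steady-state arrays alone called 42 genes higher. Under the curve 26 of the 62 rises were called higher and 7 lower. In the newly synthesized label 41 of the 62 were called higher and 3 lower.

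Not all heat-shock genes followed. Of 29 genes for cytosolic and mitochondrial chaperones, with their partners, 26 fell and none rose (median -1.03, 0.14 above all genes, 0.53 below under the curve). BTN2, described above, is a member. SSA2, an Hsp70 gene, fell by 0.78 (SE 0.22) and HSC82, the constitutive Hsp90 gene, by 0.73 (SE 0.22), and under the curve they read -2.26 and -2.14. HSP82, the inducible Hsp90 gene, read 11.99 and 12.50 with DMSO and 10.59 and 10.74 with rapamycin (-1.58, SE 0.22, adjusted p = 1.03e-07), and was picked after its values were seen. In the unfolded protein response 19 of 21 genes fell, close to the share of all genes (median -1.15, 0.02 above all genes), and 1, HAC1, was called higher. HAC1, which encodes the activator of that response, read 6.09 and 6.21 with DMSO and 6.59 and 6.73 with rapamycin (0.51, SE 0.21, adjusted p = 0.0255). Of these 4 values 3 lie under the signal limit, and HAC1 was tested because its newly synthesized arrays read 7.29 to 8.36. Its call was lost without DMSO replicate 1 (0.45, adjusted p = 0.0668) and without rapamycin replicate 2 (0.44, adjusted p = 0.0723). Its target HRD3, a gene of protein quality control in the endoplasmic reticulum, fell by 1.85 (SE 0.23).

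Genes that make ribosomes and genes that make up ribosomes differed in how far they fell, and the scale set by how much. Of 113 ribosome biogenesis genes 112 fell, with a median of -1.42 (0.24 below all genes, 0.62 below under the curve). DHR2, an RNA helicase gene of small-subunit processing, read 10.40 and 10.60 with DMSO and 7.86 and 8.44 with rapamycin (-2.35, SE 0.23, adjusted p = 2.9e-10). NOP58, which encodes a core box C/D snoRNP protein, fell by 1.21 (SE 0.23), GAR1 of the box H/ACA snoRNPs by 0.99 (SE 0.22) and NHP2 of the same particles by 0.66 (SE 0.21).

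Of 128 cytosolic ribosomal protein genes 29 fell and none rose, with a median of -0.32, which was 0.21 with intensities as deposited and 0.95 with equal medians. It is 0.86 above all genes under a constant shift and 0.26 below all genes under the curve. There 127 of 128 were lower (median -1.80), against 95% of all genes. The count rested on single arrays: 67 fell without DMSO replicate 1 (median -0.50) and 13 without DMSO replicate 2 (median -0.14). RPL4B, a large-subunit gene, fell most (-1.05, SE 0.22). RPL10 read 12.83 and 13.05 with DMSO and 13.06 and 12.84 with rapamycin, RPL24A 12.56 and 12.63 against 12.68 and 12.58, and RPL20B 12.52 and 12.74 against 12.74 and 12.63. All 3 pairs of groups overlapped, their changes were 0.01, 0.04 and 0.05 (SE 0.21 each), and their 95% intervals lay within 0.5 of 0. Under the curve the same 3 genes were at -1.52, -1.42 and -1.41, in the signal range with the fewest S. pombe probe sets. Probe sets of ribosomal protein genes can share sequence with a paralog, so single members are uncertain. Aminoacyl-tRNA synthetase genes all fell, 20 of 20 (median -1.23), as did 33 of 36 translation factor genes (median -1.14); under the curve their medians were -2.21 and -1.97, which is 0.67 and 0.43 below all genes, against 0.06 below and 0.04 above on the constant scale.

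**Figure D4:**
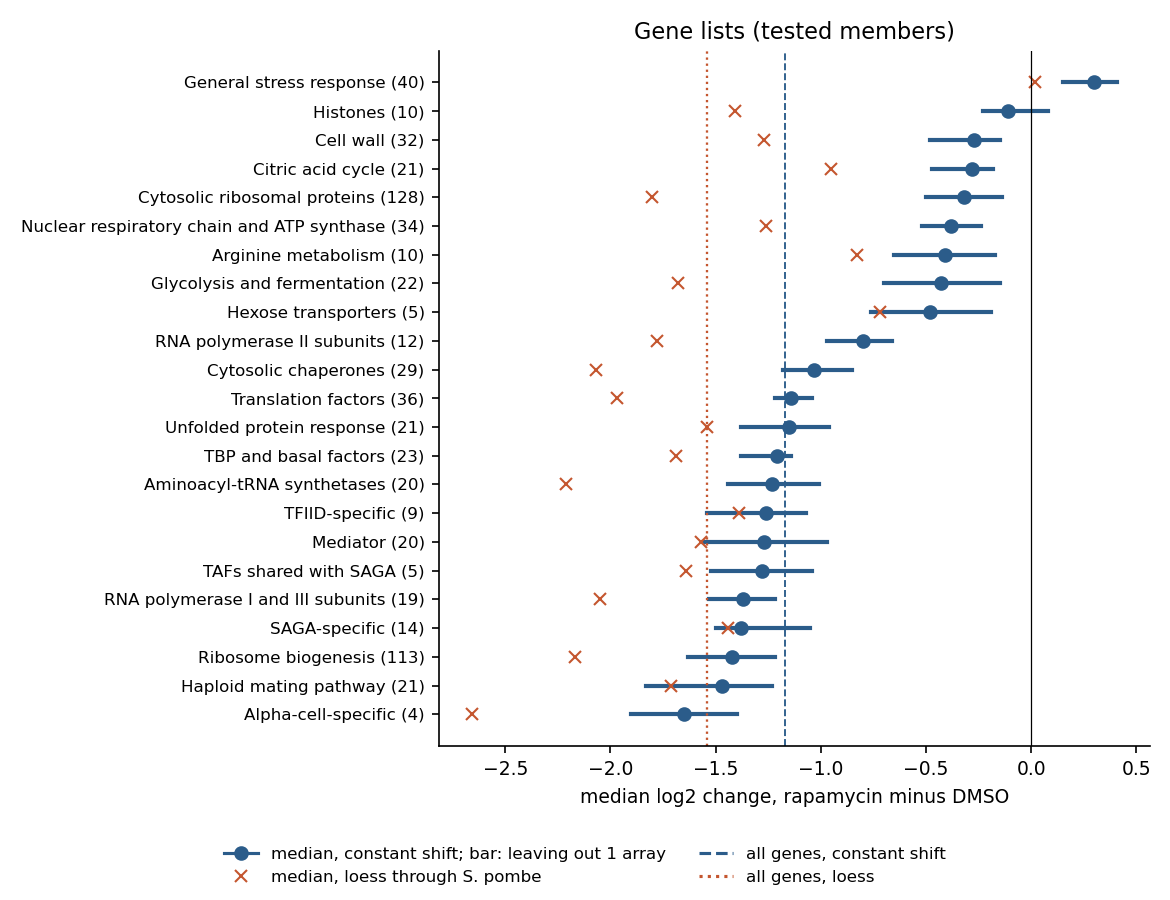
Median log2 change (rapamycin minus DMSO) of 23 gene lists, with the number of tested members in brackets; points are medians under the constant S. pombe shift, bars their range leaving out each array in turn, crosses the medians under the curve fitted to the S. pombe spike-in, and vertical lines the medians of all genes. The stress list lies highest on both scales (0.30 and 0.02), while the ribosomal protein list lies above the all-gene line with the constant shift (-0.32 against -1.17) and below it with the curve (-1.80 against -1.54).

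Genes for the same step of sugar metabolism moved differently. Of 22 genes of glycolysis and fermentation 10 fell and 4 rose (median -0.43, 0.74 above all genes, 0.14 below under the curve; 0.10 as deposited). Without DMSO replicate 1, 15 fell and the median was -0.70, and without DMSO replicate 2, 8 fell and the median was -0.15. The 4 that rose were TDH1, ENO1, HXK1 and GLK1, and the last 3, with their partners, were picked after their values were seen. TDH1 read 9.82 and 10.01 with DMSO and 11.59 and 11.75 with rapamycin, a rise of 1.76 (SE 0.22, adjusted p = 1.18e-08). TDH3, the main gene for the same enzyme, read 13.43 and 13.64 with DMSO and 13.54 and 13.48 with rapamycin (-0.03, SE 0.21). The TDH1 groups were apart, as the choice of the largest rises required, and the TDH3 groups overlapped. The curve lowered both genes (0.75 for TDH1 and -1.66 for TDH3) without reversing their order.

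ENO1, an enolase gene, read 10.99 and 10.84 with DMSO and 11.96 and 12.03 with rapamycin (1.07, SE 0.21, adjusted p = 1.92e-05). ENO2, its glucose-induced counterpart, read 13.45 and 13.77 with DMSO and 13.29 and 13.28 with rapamycin (-0.32, SE 0.21, adjusted p = 0.15; without DMSO replicate 1 -0.48, adjusted p = 0.042). Under the curve ENO1 was at -0.09 (adjusted p = 0.742) and ENO2 at -1.94. Among the genes that phosphorylate glucose, HXK1 rose by 0.85 (SE 0.22) and GLK1 by 0.89 (SE 0.22; 0.59 without DMSO replicate 1), while HXK2, the main hexokinase gene on glucose, fell by 0.67 (SE 0.21). Neither rise was called under the curve (adjusted p = 0.492 and 0.988).

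Of 5 hexose transporter genes 3 fell and 1 rose (median -0.48, 0.70 above all genes, 0.82 above under the curve; 0.05 as deposited). The median was -0.19 without rapamycin replicate 1 and -0.76 without rapamycin replicate 2. HXT1, a low-affinity transporter gene induced by high glucose, read 10.49 and 10.81 with DMSO and 9.19 and 9.54 with rapamycin (-1.28, SE 0.22), and HXT3, of the same kind, fell by 0.81 (SE 0.22). HXT7, a high-affinity transporter gene, read 10.01 and 10.28 with DMSO and 10.51 and 10.80 with rapamycin (0.51, SE 0.22, adjusted p = 0.027). Its probe set is not specific to 1 gene, its call was lost without DMSO replicate 1 (0.38, adjusted p = 0.128) and without rapamycin replicate 2 (0.37, adjusted p = 0.138), and under the curve it was at -0.26. CYC7, the cytochrome c gene used at low oxygen, read 8.04 and 8.08 with DMSO and 9.36 and 9.62 with rapamycin (1.43, SE 0.21). CYC1, the main cytochrome c gene and picked after its values were seen, read 10.11 and 10.38 with DMSO and 10.23 and 10.44 with rapamycin, with overlapping groups (0.09, SE 0.21, adjusted p = 0.696; -0.63 under the curve).

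**Figure D5:**
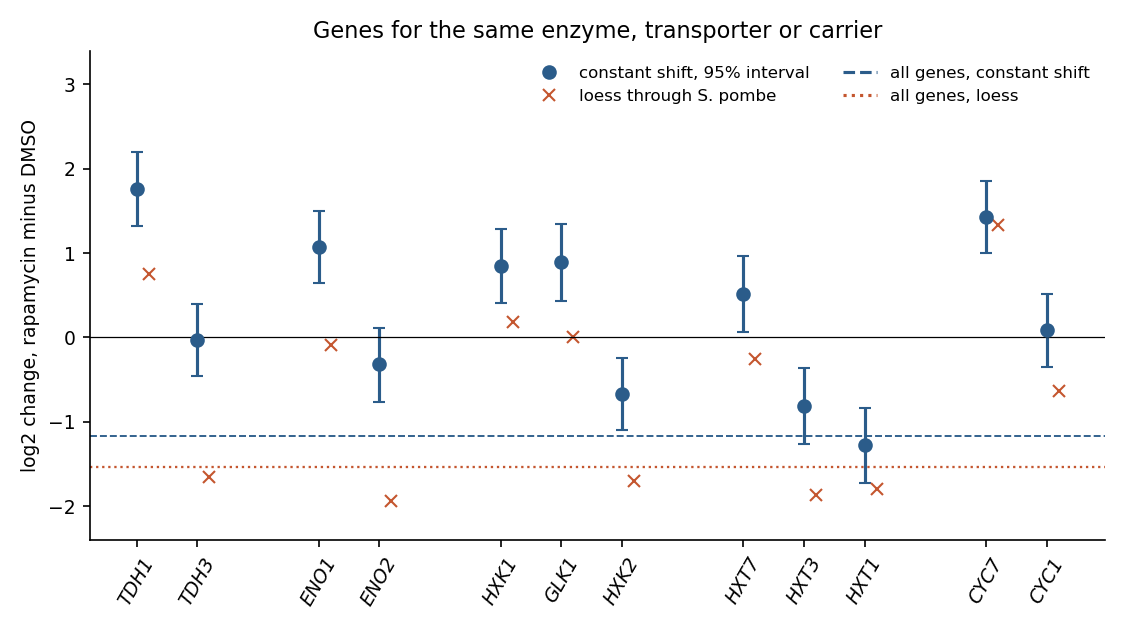
Log2 change (rapamycin minus DMSO) of genes for the same enzyme, transporter or carrier; points with 95% intervals are from the constant S. pombe shift, crosses from the loess curve, and horizontal lines mark the median of all genes on each scale. TDH1, ENO1, HXK1, GLK1, HXT7 and CYC7 lie above their partners on both scales, although ENO1 and HXT7 turn negative under the curve and HXK1 and GLK1 fall to 0.18 and 0.00.

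Mitochondrial energy genes fell little on the constant scale. Of 21 citric acid cycle genes 10 fell and none rose (median -0.28, 0.90 above all genes, 0.59 above under the curve), and PYC2, a pyruvate carboxylase gene, fell most (-1.07, SE 0.21). Of 34 nuclear genes for the respiratory chain and ATP synthase 12 fell, and CYC7 was the 1 that rose (median -0.38, 0.80 above all genes, 0.28 above under the curve). That count was 17 without DMSO replicate 1 or rapamycin replicate 2 and 4 without DMSO replicate 2 (median -0.24) or rapamycin replicate 1 (median -0.25). COR1, a core subunit gene of complex III, fell by 0.83 (SE 0.22) and ATP1, the alpha subunit gene of ATP synthase, by 0.68 (SE 0.22). Under the curve ATP1 was at -2.04 and COR1 at -1.72. With intensities as deposited both medians were positive, at 0.25 and 0.15. Under the curve 16 citric acid cycle and 30 respiratory genes were lower, and with equal medians 16 and 34 were higher. The shares of all genes were 95% lower under the curve and 32% higher with equal medians. The citric acid cycle median was -0.47 without DMSO replicate 1, -0.42 without DMSO replicate 2, -0.18 without rapamycin replicate 1 and -0.46 without rapamycin replicate 2.

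Most histone genes passed in neither direction on the constant scale. Under the curve 9 of 10 were lower, against 95% of all genes. With equal medians 9 were higher, against 32% of all genes. Of 10 tested 1 fell and 2 rose (median -0.11, 1.06 above all genes and 0.13 above under the curve), but the median was 0.42 as deposited and 0.08 without DMSO replicate 2, and 3 fell without DMSO replicate 1 (median -0.23). Without rapamycin replicate 2 the median was -0.05. CSE4, the centromeric H3 variant gene, read 10.11 and 10.42 with DMSO and 8.82 and 9.33 with rapamycin (-1.19, SE 0.22), and was the 1 that fell. HHT2, a histone H3 gene, read 11.52 and 11.43 with DMSO and 11.98 and 12.33 with rapamycin (0.68, SE 0.22, adjusted p = 0.00391), and was at -0.51 under the curve (adjusted p = 0.0504). HTA1, a histone H2A gene, read 13.26 and 13.45 with DMSO and 13.45 and 13.44 with rapamycin (0.09, SE 0.21), with overlapping groups. The curve put it at -1.46. HTA2, a second H2A gene whose probe set is not specific to 1 gene, was at -0.02 (SE 0.21) and -1.59 under the curve.

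Cell wall genes went both ways on the constant scale. Under the curve 27 of 32 were lower and none higher, against 95% and 0.665% of all genes. With equal medians 2 were lower and 27 higher, against 18.1% and 32% of all genes. Of 32 tested 12 fell and 4 rose (median -0.27, 0.90 above all genes, 0.27 above under the curve; 0.25 as deposited), and 1 rose without rapamycin replicate 2. The median was -0.48 without DMSO replicate 1 and -0.15 without DMSO replicate 2. CWP1, a cell wall mannoprotein gene, read 11.06 and 10.81 with DMSO and 12.11 and 11.86 with rapamycin (1.05, SE 0.22, adjusted p = 4.3e-05) and was at -0.12 under the curve. MKC7, an aspartyl protease gene of the cell surface, read 9.93 and 10.37 with DMSO and 7.76 and 8.07 with rapamycin (-2.23, SE 0.22). Of this pair, only MKC7 kept its direction under the curve.

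Of 4 alpha-specific genes 3 fell. MF(ALPHA)2, a pheromone gene, read 12.95 and 13.45 with DMSO and 11.33 and 11.60 with rapamycin (-1.74, SE 0.22, adjusted p = 1.75e-08). STE3, the a-factor receptor gene, fell by 1.93 (SE 0.22) and SAG1, the alpha-agglutinin gene, by 1.56 (SE 0.22). MF(ALPHA)1, the main pheromone gene, read 13.33 and 13.63 against 13.11 and 13.14 (-0.35, SE 0.21, adjusted p = 0.118; without DMSO replicate 1 -0.50, adjusted p = 0.0379), and -1.90 under the curve. All 21 tested genes of the haploid mating pathway fell (median -1.47, 0.30 below all genes, 0.17 below under the curve), FUS1, a gene of cell fusion, by 2.04 (SE 0.23).

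Arginine genes went both ways. ARG1, which encodes argininosuccinate synthetase, read 7.79 and 7.95 with DMSO and 9.60 and 9.82 with rapamycin (1.84, SE 0.21, adjusted p = 4.61e-09). ARG3, the ornithine carbamoyltransferase gene, read 7.19 and 7.77 with DMSO and 8.48 and 9.17 with rapamycin (1.34, SE 0.24). Both held under the curve, at 1.62 and 1.39. ORT1, which encodes the mitochondrial ornithine carrier, read 8.30 and 8.52 with DMSO and 6.59 and 7.12 with rapamycin (-1.56, SE 0.22), the lower rapamycin value being under the signal limit. Of 10 tested members of the list 2 rose and 4 fell (median -0.41, 0.76 above all genes; 0.12 as deposited; 6 fell without DMSO replicate 1 or rapamycin replicate 2). That median was -0.23 without DMSO replicate 2, -0.17 without rapamycin replicate 1 and -0.65 without rapamycin replicate 2. GCN4, the activator of amino acid synthesis genes, was at -0.17 (SE 0.21, adjusted p = 0.437) and -1.42 under the curve. In the iron regulon 13 of 19 fell and 2 rose (median -1.19, 0.02 below all genes, 0.23 above under the curve): FET5, a ferroxidase gene, fell by 1.90 (SE 0.22) and FIT2, a cell wall mannoprotein gene of siderophore uptake, rose by 0.77 (SE 0.21), but was at 0.17 under the curve (adjusted p = 0.525).

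Genes of other large complexes and pathways followed the fall of all genes. All 50 genes for chromatin remodelers fell (median -1.37), as did 56 of 59 spliceosome genes (median -1.21), 43 of 44 for nuclear pores and transport (median -1.28), 39 of 42 for the secretory pathway (median -1.20) and all 24 for purine and pyrimidine synthesis (median -1.26). These medians lie within 0.20 of the all-gene median, and under the curve all do but purine and pyrimidine synthesis (0.49 below). Proteasome genes fell less, 27 of 34 with a median of -0.79 (0.38 above all genes, 0.11 below under the curve), as did 60 of 66 mitochondrial ribosomal protein genes (median -0.96, 0.22 above, 0.10 above under the curve).

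Changes were similar along the genome. The 16 chromosome medians lay between -1.27 and -1.07, and the share of genes lower was between 78.0% (chromosome V) and 90.5% (chromosome VIII). Of 67 genes within 20 kb of the outermost annotated gene 59 fell and 2 rose (median -1.29). Across neighbouring genes the changes correlated at 0.089 for 883 divergent pairs, 0.056 for 965 convergent pairs and 0.044 for 1503 tandem pairs, a description over pairs that share arrays. Most of the largest rises had no neighbour that rose: TDH1 (1.76) lies in tandem with IRC8 (-2.56), CYC7 (1.43) is divergent from UTR4 (-0.96), and DDR2 (2.84) lies beside SPE2 (-1.49) and AIM39 (-1.17). Beside the 15 largest rises, only YBR071W, next to HSP26 (0.75, adjusted p = 0.00145), and YLR179C, next to TFS1 (0.52, adjusted p = 0.0323), also rose among the tested adjacent genes. The call of YLR179C rested on rapamycin replicate 1, without which it was 0.14 (adjusted p = 0.566), was also lost without DMSO replicate 1 (0.48, adjusted p = 0.105) or DMSO replicate 2 (0.56, adjusted p = 0.0686), and was 0.91 without rapamycin replicate 2; the curve put it at -0.60.

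Short genes fell less than long ones. In 5 length classes of about equal size the median change was -0.76 for the 873 genes of 78 to 672 bp. Of these 72.6% fell and 33 (3.78%) rose. For the 872 genes of the longest class the median was -1.36, 96.7% fell and 3 (0.344%) rose. Of all genes 86.8% fell and 1.42% rose. Probe sets of the shortest class also had a higher median signal (9.59 against 8.31 for the longest class), which describes probe sets and not transcript levels, and under the curve the medians ran only from -1.44 to -1.61. The part of signal in the length trend was not tested.

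The newly synthesized label was compared in the same fit, since its arrays come from the same strain title. There 3462 of 4359 genes (79.4%) were lower and 78 (1.79%) higher, with a median of -0.78. The difference of the changes, newly synthesized minus steady-state, was positive for 3603 genes with a median of 0.39, and 58 genes (1.33%) passed its test, 52 positive (1.19%) and 6 negative (0.138%). That count rested on single arrays: without DMSO replicate 1 it was 16 negative and 760 positive, and without rapamycin replicate 2 it was 37 negative and 1085 positive. By the same limma test it was 0 without DMSO replicate 2, where 58 negative and 395 positive differences had an unadjusted p under 0.05, and 0 without rapamycin replicate 1, where 63 and 495 did.

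Single genes differed in both directions. SLX5, a gene of a SUMO-targeted ubiquitin ligase, fell by 2.35 (SE 0.24) in the steady-state and by 0.65 (adjusted p = 0.0135) in the newly synthesized label, a difference of 1.70 (SE 0.33, adjusted p = 0.0207). APL5, a subunit gene of the AP-3 adaptor, was at -2.0 against -0.40 (difference 1.59, SE 0.33), and MNN5 and GCD10 differed by 1.59 and 1.54. In the other direction HSP26 rose by 2.92 in the steady-state and 1.58 in the newly synthesized label (difference -1.34, SE 0.32, adjusted p = 0.0341). HAC1, with steady-state values mostly under the signal limit, was 0.51 against -0.87 (difference -1.38, SE 0.30), EFG1, a gene of ribosomal RNA processing, 0.14 against -1.20 (difference -1.35, SE 0.30) and YRA1, an mRNA export gene, -0.42 against -1.71 (difference -1.28, SE 0.31). The steady-state value of YRA1 passed only without rapamycin replicate 2 (-0.68, adjusted p = 0.00683). HSP26 does not stand for its list, since the stress list's median was 0.30 in the steady-state and 0.81 in the newly synthesized label. Since the fraction labels are in doubt, these differences are between labels.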

How the data were processed

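The authors deposited 1 table of linear intensity values, 1 per probe set and array, made with Affymetrix Expression Console 1.4.1, per the submitters' processing notes. The summary algorithm is not given in the sources used here. All 10928 probe sets were read, of which 7244 have 1 gene name, 1 has several and 3683 have none. They include 5498 probe sets of 5449 S. cerevisiae genes and 1746 of S. pombe, with names and positions from RefSeq's R64 annotation. FPR1, TRP1 and the mitochondrial genome have no named probe set. The trimmed mean of each deposited Taf4 column is near 500, so differences in total RNA appear only relative to the spike-in.

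Values were put on the log2 scale and each array was shifted to an equal median of its S. pombe probe sets. Each gene was represented by its brightest probe set, and the dimmest 20% of genes were left out. The 8 Taf4-labelled arrays (4 groups of 2) were fitted with limma 3.58.1 in R 4.3.3 (lmFit, eBayes, Benjamini-Hochberg over all tested genes), and the difference between labels was tested as an interaction. The number of arrays limits the precision. On simulated data for the steady-state contrast the same fit called 23.2%, 89.2% and 100% of genes changed by 0.5, 1 and 2 on the log2 scale and 0.192% of unchanged genes. There 56, 74 and 70 genes were changed, far fewer than the 88.3% called in the data, so these rates test the fit and do not give the precision of the contrast.

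Genes named in the text were the 15 largest called rises and falls with groups that did not overlap, the strain's genes, for each list its largest called rise and fall and its 3 members of highest mean signal, the 4 largest differences between labels each way, and the 6 genes of highest mean signal whose 95% interval lay within 0.5 of 0. The largest changes also needed a gene symbol and probes that match 1 gene alone. Others are named as picked after their values were seen, or are neighbours of the largest rises. The members and the lists were chosen with earlier results of these data known. Alternatives were other scalings, filters, probe-set rules, variance models, a pseudocount, the 4 steady-state arrays alone, a replicate block and leaving out each array. Replicate numbers were not used to pair arrays.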

Additional observations from a re-analysis of the deposited data

Results flagged for a closer look

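For 15 of the named genes the rapamycin change differed between the newly synthesized and steady-state labels by limma's interaction test (adjusted p under 0.05 over all 4359 genes). Positive values mean a smaller fall in the newly synthesized label. They were 1.70 for SLX5, 1.59 for APL5, 1.59 for MNN5, 1.54 for GCD10, 1.44 for IRC8, 1.34 for SET5, 1.29 for FET5, 1.28 for RPO21, 1.28 for RPB2, 1.27 for TPK3 and 1.21 for YAP1802. HAC1 (-1.38), EFG1 (-1.35), HSP26 (-1.34) and YRA1 (-1.28) went the other way; the steady-state values of HAC1 lie mostly under the signal limit. Several of these genes were named because of this difference or because of a large steady-state change, which makes their number no measure of how common such differences are. No gene passed this test in limma without DMSO replicate 2 (unadjusted p under 0.05 for 58 negative and 395 positive) or without rapamycin replicate 1 (63 and 495), and part of what the labels distinguish is in doubt because scans recur under other labels.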

How the results depend on the processing

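Scaling mattered most. Setting the S. cerevisiae medians equal left 787 lower and 1393 higher, the median change was 0.09 and 1306 S. pombe probe sets were called. As deposited, 259 were higher, with a median of -0.64 and an array difference of -0.67. Under the loess curve 29 were higher (median -1.54, array difference -1.51), and 40 with the brighter S. pombe probe sets. The difference between labels gave, negative and positive, 22 and 88 as deposited, 61 and 19 with equal medians, 6 and 2003 under the curve, 4 and 265 with brighter S. pombe probe sets, 1 and 1 without the filter, 5 and 29 with the 40% filter, 17 and 193 with an intensity trend, 10 and 122 with a pseudocount of 16, and 0 to 37 and 0 to 1085 leaving out 1 array. The replicate block gave 38 and 1004; replicate 1 minus replicate 2 correlated at 0.17 between steady-state DMSO and rapamycin, so the numbers are not treated as pairs, and it gave 3908 lower and 73 higher in the main contrast.

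With equal medians the following read positive: AIM39 0.09, ATP1 0.59, COR1 0.44, CSE4 0.07, ENO2 0.94, GAR1 0.28, GCN4 1.09, HSC82 0.54, HTA2 1.25, HXK2 0.60, HXT3 0.46, MF(ALPHA)1 0.92, MSN4 0.01, NHP2 0.60, NOP58 0.06, PYC2 0.19, RPL4B 0.22, SSA2 0.49, TAF14 0.86, TAF1 0.06, TDH3 1.24, TOR1 0.35, UTR4 0.31 and YRA1 0.84. So did the list medians of tRNA synthetases (0.03), arginine (0.86), cell wall (0.99), citric acid cycle (0.99), chaperones (0.24), ribosomal proteins (0.95), glycolysis (0.84), hexose transporters (0.79), histones (1.16), respiratory chain (0.89), RNA polymerase II (0.46), basal factors (0.06), TFIID (0.00), translation factors (0.13) and the unfolded protein response (0.12).

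As deposited, GCN4 (0.36), HTA2 (0.51), TDH3 (0.50) and the lists of arginine (0.12), cell wall (0.25), citric acid cycle (0.25), ribosomal proteins (0.21), glycolysis (0.10), hexose transporters (0.05), histones (0.42) and respiratory chain (0.15) were positive. Under the curve CWP1 (-0.12), CYC1 (-0.63), EFG1 (-0.64), ENO1 (-0.09), GLK1 (-0.00), HHT2 (-0.51), HTA1 (-1.46), HXT7 (-0.26), RPL10 (-1.52), RPL20B (-1.41), RPL24A (-1.42), SOD2 (-0.68) and YLR179C (-0.60) were negative. Leaving out 1 array, the histone median ran from -0.23 to 0.08. The planned search of promoters for TATA motifs was not run.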
